A study of Mus musculus with 8 samples.

Results

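The genes described here encode the subunits of the mouse SWI/SNF chromatin remodelling complexes, and the data are ATAC-seq counts at their loci. ATAC-seq uses the Tn5 transposase to cut and tag open chromatin, so a count measures how accessible a stretch of DNA is and not how much its gene is expressed. A consensus region was taken as a member region when the nearest protein-coding gene body, inside it or at most 50 kb away, belonged to 1 of 30 named subunit genes. That rule uses positions and no measured value. It gave 91 regions out of 57417, of which 48280 had any gene in reach. Of the 30 genes, 28 had at least 1 region, and Pbrm1 and Actl6b had none.

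The libraries came from PB3, a mouse breast cancer cell line whose label gives no oestrogen, progesterone or Her2 receptor. There were 4 lines with 2 libraries each. PB3-ERI-R was the derivative labelled with eribulin (spelled Erubilin in some labels), PB3-PAC-R the derivative labelled with paclitaxel and PB3-VIN-R the derivative labelled with vinorelbine. PB3-Parental was the untreated line. All 3 drugs act on microtubules, and selection used 300 nM, 500 nM and 800 nM of each, per the labels' protocols. The labels speak of resistant clones and do not say whether a line is 1 clone, nor whether the 2 libraries of a line came from separate cultures, so every p below speaks to the spread between libraries alone, which may be technical.

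Counts over all regions totalled 10521964 to 24052237 per library, and the member regions held 0.196% to 0.212% of them in every library. The 2 PB3-ERI-R libraries stood apart: their log2 CPM (counts scaled to the library's effective size) correlated at 0.984 with each other over all regions and at 0.214 to 0.31 with the other 6, which correlated at 0.948 to 0.984 among themselves. Each line is thus compared with a background share of all features called changed. The epithelial marker list rose at 9 of 12 loci in PB3-ERI-R and fell at 0 (summed locus level 1800 and 1570 CPM, against 745 and 594 CPM in PB3-Parental). The mesenchymal list fell at 9 of 12 and rose at 1 (752 and 713 CPM against 1230 and 1200 CPM). In PB3-PAC-R and PB3-VIN-R no locus of either list was called by edgeR. The part of this difference between the lines in the changes at the subunit loci was not tested.

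SWI/SNF complexes use the energy of ATP to slide or evict nucleosomes, and by doing so they keep enhancers and promoters accessible. Every complex holds one of the ATPases Smarca2 (BRM) and Smarca4 (BRG1) on a core of further subunits. The 7 genes classed here as shared core are a list, and a complex need not hold all of them. The assembly around that core defines the form: canonical BAF carries Arid1a or Arid1b and a Dpf protein, PBAF carries Arid2, Pbrm1, Brd7 and Phf10, and non-canonical BAF carries Brd9 with Bicra or Bicral. In neurons some positions are taken by other family members, namely Actl6b, Dpf1, Dpf3 and Ss18l1. Subunit genes of this family are recurrently mutated in human cancers, Arid1a most prominently.

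RefSeq promoter sequences on build GRCm38.p6 (250 bases before to 50 after a listed gene start, the same coordinates as mm10) matched 24 of the 30 members, with 26 sequences. Smarce1, Arid2, Bcl7a, Ss18, Bicra and Bicral had no entry in that table. The 5 shown here were picked for the results that follow. Smarca4 encodes one of the ATPases. At Smarcc1 and Phf10 inner regions fell while the start region did not, and at Dpf3 inner regions rose by more than the start region. Bcl11b gained regions far inside the gene with none at the listed start. Capitals mark GGGCGG, or CCGCCC where it lies on the other strand, and CCGGAAG.
Smarca4 (chr9:21615919-21616218, plus strand): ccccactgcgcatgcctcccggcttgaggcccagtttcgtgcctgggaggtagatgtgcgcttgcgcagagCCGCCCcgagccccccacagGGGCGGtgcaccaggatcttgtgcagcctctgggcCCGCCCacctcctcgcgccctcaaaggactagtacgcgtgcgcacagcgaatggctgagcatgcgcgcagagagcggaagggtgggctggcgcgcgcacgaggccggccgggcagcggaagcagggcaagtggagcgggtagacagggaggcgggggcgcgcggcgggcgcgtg
Smarcc1 (chr9:110131774-110132073, plus strand): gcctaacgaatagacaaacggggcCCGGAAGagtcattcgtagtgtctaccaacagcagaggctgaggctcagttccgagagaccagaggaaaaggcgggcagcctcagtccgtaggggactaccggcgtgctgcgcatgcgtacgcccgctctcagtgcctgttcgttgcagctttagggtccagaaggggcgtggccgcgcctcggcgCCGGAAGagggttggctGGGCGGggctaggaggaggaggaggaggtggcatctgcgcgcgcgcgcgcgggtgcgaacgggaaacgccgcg
Phf10 (chr17:14961211-14961510, minus strand): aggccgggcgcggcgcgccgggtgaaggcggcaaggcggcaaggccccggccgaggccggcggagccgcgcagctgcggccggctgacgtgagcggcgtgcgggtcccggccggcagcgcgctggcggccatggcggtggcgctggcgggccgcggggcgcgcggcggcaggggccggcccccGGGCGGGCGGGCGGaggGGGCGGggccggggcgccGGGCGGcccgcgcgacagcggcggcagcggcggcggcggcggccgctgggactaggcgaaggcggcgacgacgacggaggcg
Dpf3 (chr12:83487687-83487986, minus strand): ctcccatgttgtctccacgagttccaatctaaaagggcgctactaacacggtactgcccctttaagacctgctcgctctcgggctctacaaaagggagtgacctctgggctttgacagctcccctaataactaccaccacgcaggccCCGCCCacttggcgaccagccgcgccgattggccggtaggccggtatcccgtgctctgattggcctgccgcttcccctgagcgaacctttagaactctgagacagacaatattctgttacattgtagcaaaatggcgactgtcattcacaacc
Bcl11b (chr12:108003365-108003664, minus strand): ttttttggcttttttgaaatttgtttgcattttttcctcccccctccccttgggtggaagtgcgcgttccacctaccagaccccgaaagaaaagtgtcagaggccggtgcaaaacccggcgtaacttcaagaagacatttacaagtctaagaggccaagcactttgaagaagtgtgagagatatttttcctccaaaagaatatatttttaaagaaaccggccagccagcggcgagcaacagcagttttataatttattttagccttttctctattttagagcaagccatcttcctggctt

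These starts are rich in G and C. The median GC content was 68.8% over the 26 member sequences and 56.3% over 21263 sequences of protein-coding genes, and the median number of CpG pairs was 33 and 13. The GGGCGG motif, bound by Sp and Klf factors, was searched on both strands and was present in 24 of 26 member sequences (92.3%) and in 46.2% of all sequences. Phf10 had the highest GC content, 87.0%, and Bcl11b the lowest, 43.0%, with no match to that motif. The Bcl11b sequence does not reach the end at which its gene body begins. The ETS family core CCGGAAG was in 15.4% of member and 11.6% of all sequences, AAGATGGCG (Yy1) in 3.85% and 1.83%, CAGGTG (the E-box of Zeb and Snai factors) in 3.85% and 19.7%, and TGANTCA (AP-1) in 7.69% and 6.99%. The Nrf1 motif was in 0 of 26 member sequences and in 1.33% of all. A match is a match of letters, not a bound site. Of the 26 sequences, 18 overlapped a consensus region and 8 did not, and the median GC content was 68.8% and 68.5% in these groups.

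Accessibility at the subunit loci changed in PB3-ERI-R and hardly at all in the other lines. Counts were summed over all regions of a gene and tested with edgeR over all 14939 gene loci at a Benjamini-Hochberg adjusted p under 0.05, the call rule used throughout. In PB3-ERI-R against PB3-Parental, 8 member loci rose and 9 fell out of 28, or 60.7%, where 58.3% of all loci were called (28.0% higher and 30.3% lower). The share of members called was thus close to the background, and the median log2 fold change was 0.03 over members and 0 over all loci. What distinguished members from each other was direction and size: changes ran from -3.21 at Arid2 to 3.89 at Bcl11b on the log2 scale. For single regions, 36 of 91 rose and 21 fell (62.6%), where 73.0% of all 57415 regions tested were called (35.4% higher and 37.6% lower). With no scaling factor in place of TMM, these became 25 higher and 38 lower, with the median of all regions at -0.29.

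Scaling matters at small changes. TMM, the normalization to a trimmed mean of ratios, gave the 2 PB3-ERI-R libraries factors of 0.8023 and 0.8584 in the table of regions and 0.9299 and 0.9755 in the table of loci. Scaling the loci as the regions shifted the median of all loci by 0.27, and 12 member loci then rose and 4 fell. Under it the falls of Smarcb1, Smarce1, Bcl7b, Arid1b and Dpf2 were no longer called (log2 fold changes of -0.08, -0.14, -0.06, -0.09 and -0.11). The loci called under every setting run were 9 of the 17, namely Smarcc1, Smarcd2, Bcl7a, Arid1a, Bcl11a, Bcl11b, Arid2, Bicral and Dpf3. CPM values below use the scaling of their own table, so a level is comparable between libraries within a table and not between a locus, a promoter sum and a region.

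**Figure D1:**
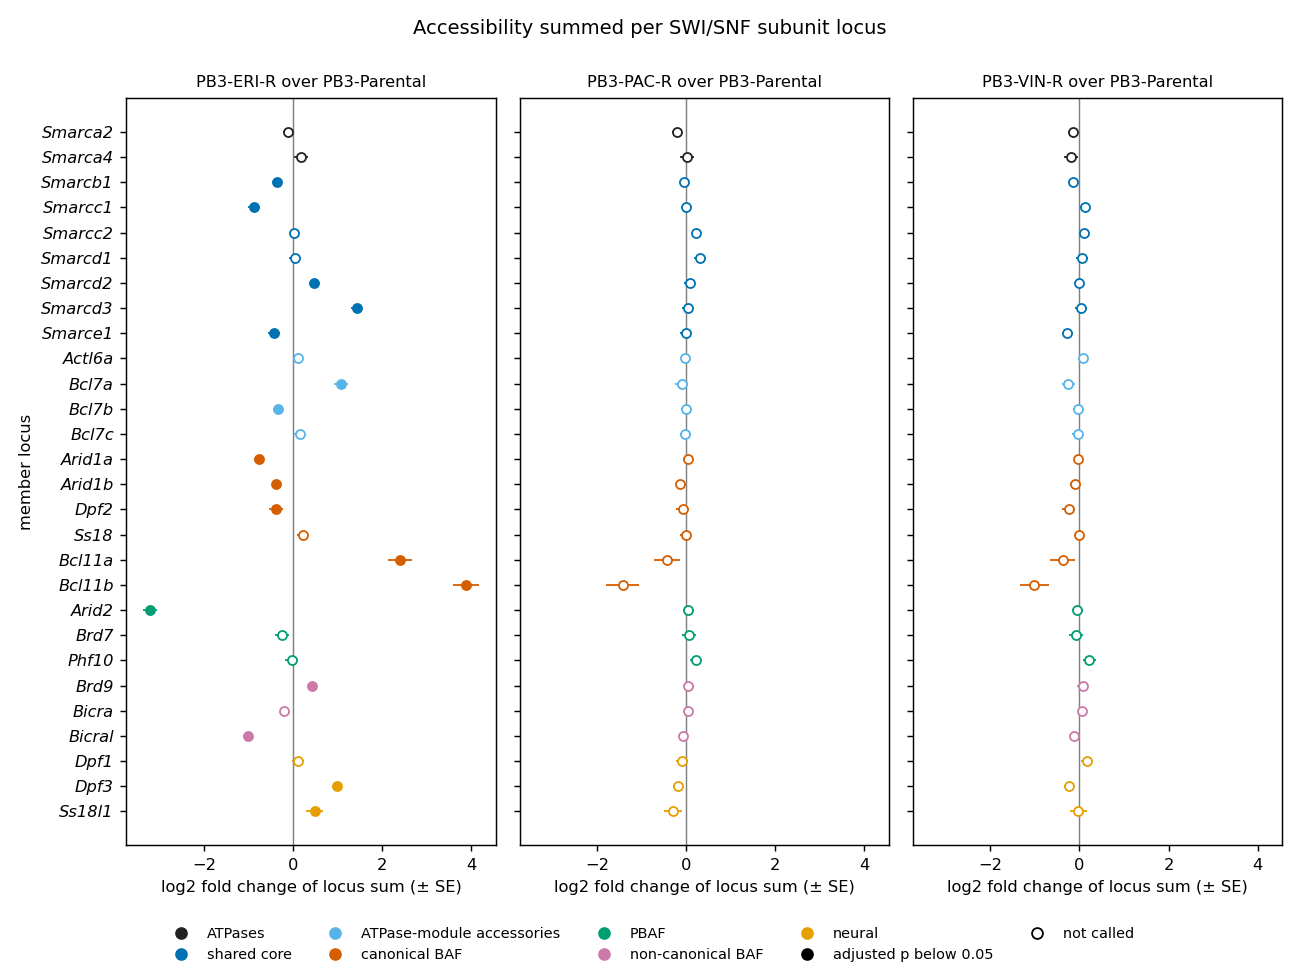
Log2 fold change (± SE) of the summed accessibility of each of 28 SWI/SNF subunit loci in PB3-ERI-R, PB3-PAC-R and PB3-VIN-R over PB3-Parental, coloured by subunit class; filled points passed the test. The PB3-ERI-R points spread from -3.21 (Arid2) to 3.89 (Bcl11b), while no point is filled in the other 2 panels.

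Neither ATPase locus was called. Smarca4 held 53.9 and 58.3 CPM in PB3-ERI-R, against 46.6 and 52.3 CPM in PB3-Parental, in the region at its start, its only one. Its locus change was 0.18 ± 0.15 (log2, SE, adjusted p = 0.32), and the groups did not overlap but lay close together. Smarca2 held 137 and 115 CPM in PB3-ERI-R, against 131 and 144 CPM in PB3-Parental (-0.12 ± 0.11, adjusted p = 0.39), with overlapping groups. In the table of single regions the 2 start regions were called, with log2 fold changes of 0.34 ± 0.14 for Smarca2 and 0.46 ± 0.18 for Smarca4 (adjusted p = 0.036 and 0.0313). Those small rises are close to 0.36, the median of all 12518 promoter regions on that scale, and with no scaling factor both calls ended, at -0.02 for Smarca2 and 0.11 for Smarca4. Both calls also ended without PB3-Parental replicate 1 or PB3-ERI-R replicate 1, the Smarca4 call without PB3-ERI-R replicate 2, and the Smarca2 call without PB3-Parental replicate 2 or either PB3-PAC-R library.

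Among the 7 shared core loci, Smarcd2 and Smarcd3 rose, Smarcb1, Smarcc1 and Smarce1 fell, and Smarcc2 and Smarcd1 were not called (0.02 and 0.04), though a region 0.9 kb outside Smarcd1 was called higher (0.90 ± 0.33), a call that ended with no scaling factor (0.55) and without PB3-Parental replicate 2 (0.62) or PB3-ERI-R replicate 2 (0.74). Smarcc1 encodes BAF155, a scaffold on which the core assembles. Its locus held 43.1 and 38.8 CPM in PB3-ERI-R, against 80.4 and 69.7 CPM in PB3-Parental, a log2 fold change of -0.87 ± 0.13 (adjusted p = 0.000151) with no overlap. The fall lay inside the gene. The region at chr9:110162307-110162834, 30.3 kb from the start, had 3.62 and 1.11 CPM in PB3-ERI-R, against 21.9 and 12.6 CPM in PB3-Parental (-2.82 ± 0.44, adjusted p = 4.02e-05). A second one 96.7 kb from the start fell by 1.68 on the log2 scale, while the start region, at 39.5 and 35.5 CPM in PB3-ERI-R and 36.1 and 42.1 CPM in PB3-Parental, was not called (-0.06 ± 0.17).

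Smarcd3 (BAF60C), one of 3 alternative D subunits and known for its part in heart and muscle development, rose as a whole. The locus held 422 and 341 CPM in PB3-ERI-R, against 149 and 134 CPM in PB3-Parental (1.43 ± 0.13, adjusted p = 4.56e-06), and the groups did not overlap. All 8 of its regions were higher, by 1.34 to 2.17 on the log2 scale, including 2 outside the gene body up to 27.7 kb away. The same size of change held for its surroundings: the median of the 197 regions in its 5 Mb window of chromosome 5 was 1.47. With an offset for each window, used as a stand-in for copy number, the Smarcd3 change was -0.03 ± 0.13 (adjusted p = 0.836). The window medians and offsets are on the scale of the regions, on which the locus itself rose by 1.71. The sign of the -0.03 thus rests on mixed scales. With offsets the distal sum was 0.24 ± 0.12 (adjusted p = 0.0742), and of the 8 single regions the one at chr5:24598677-24598841 was still called (0.70 ± 0.23, adjusted p = 0.0137). Copy number was not measured, and its part in this rise was not tested further.

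Smarcd2 (BAF60B), another D subunit, rose by 0.48 ± 0.12 at 73.2 and 76.4 CPM in PB3-ERI-R, against 51.1 and 55.8 CPM in PB3-Parental (adjusted p = 0.00424). The region at chr11:106268418-106268686, 786 bp from the listed start, had 21.7 and 18.3 CPM in PB3-ERI-R, against 4.82 and 2.8 CPM in PB3-Parental (2.39 ± 0.32, adjusted p = 8.67e-06). Only the PB3-ERI-R peak list had a peak there. The gene is on the minus strand, so its body begins at its higher-coordinate end, and the listed start lies inside the body. The stronger region of this gene lay at that end, 4633 bp from the listed start, and changed by 0.45 ± 0.17. That call ended with no scaling factor (0.10), with window offsets (0.28) and without PB3-Parental replicate 1 or PB3-ERI-R replicate 2. Smarcb1 (SNF5), a core subunit lost in human rhabdoid tumours, held 76.3 and 60.5 CPM in PB3-ERI-R, against 87.0 and 88.6 CPM in PB3-Parental (-0.36 ± 0.12, adjusted p = 0.0223). Smarce1 (BAF57), which carries an HMG box, held 46.7 and 44.9 CPM in PB3-ERI-R, against 54.1 and 68.5 CPM in PB3-Parental (-0.42 ± 0.13, adjusted p = 0.0202). The groups did not overlap at either gene, and 1 of the 3 Smarce1 regions, 19.5 kb outside the gene, was called higher (0.89 ± 0.32, a call that ended with no scaling factor at 0.54, with DESeq2, and without PB3-Parental replicate 1 or PB3-ERI-R replicate 1). The Smarcb1 call ended without PB3-Parental replicate 1 or 2 or PB3-ERI-R replicate 2 (adjusted p = 0.0604, 0.0789 and 0.192), and the Smarce1 call without PB3-Parental replicate 2 or PB3-ERI-R replicate 1 or 2 (0.204, 0.0638 and 0.101).

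Of the 4 accessory subunits on the ATPase module, Bcl7a rose, Bcl7b fell and the actin-related Actl6a (BAF53A) and Bcl7c were not called as loci (0.12 and 0.15), although their start regions were called higher in the table of regions (0.44 ± 0.14 and 0.38 ± 0.16, calls that ended with no scaling factor at 0.09 and 0.02). The Actl6a locus held 95.8 and 97.2 CPM in PB3-ERI-R, against 86.7 and 90.3 CPM in PB3-Parental (0.12 ± 0.10, adjusted p = 0.322). The Actl6a start call ended also without PB3-Parental replicate 1 (0.39), and the Bcl7c one without PB3-ERI-R replicate 1 (0.17), PB3-Parental replicate 2 (0.22) or either PB3-PAC-R library, with RLE scaling, with DESeq2 and with window offsets. Bcl7a held 116 and 93.5 CPM in PB3-ERI-R, against 50.1 and 49.0 CPM in PB3-Parental (1.08 ± 0.15, adjusted p = 0.000101), with no overlap. Its largest gain was a region inside the gene at chr5:123355963-123356305. That region had 17.9 and 19.5 CPM in PB3-ERI-R, against 0.241 and 0.333 CPM (4 and 5 counts) in PB3-Parental, a log2 fold change of 6.0 ± 0.36 (adjusted p = 5.23e-09). It was near the floor in every library of the other lines, 0.166 to 0.333 CPM, and had a peak in PB3-ERI-R only. At Bcl7c, 1 of 2 inner regions rose by 1.71 ± 0.22 (adjusted p = 6.96e-06) and the other did not (-0.10 ± 0.17).

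Bcl7b had 1 region, over its start. The locus held 46.4 and 53.0 CPM in PB3-ERI-R, against 62.0 and 63.9 CPM in PB3-Parental (-0.34 ± 0.11, adjusted p = 0.0195), without overlap. The gene lies in another window of chromosome 5 whose median region rose by 1.41, over 304 regions. On the scale of that median the Bcl7b region changed by -0.06 and was not called, so it did not share the rise of its surroundings. With window offsets, taken from the regions, the locus change was -1.75. The locus call ended without PB3-Parental replicate 1 or 2 or PB3-ERI-R replicate 1 (adjusted p = 0.0549, 0.0875 and 0.156). The third gene with a raised window was Ss18l1 on chromosome 2, at 0.64. Window medians were 0.48 for Bcl11a, -0.53 for Phf10 and -0.40 for Smarca2, and ran from -0.35 to 0.27 for the rest.

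**Figure D2:**
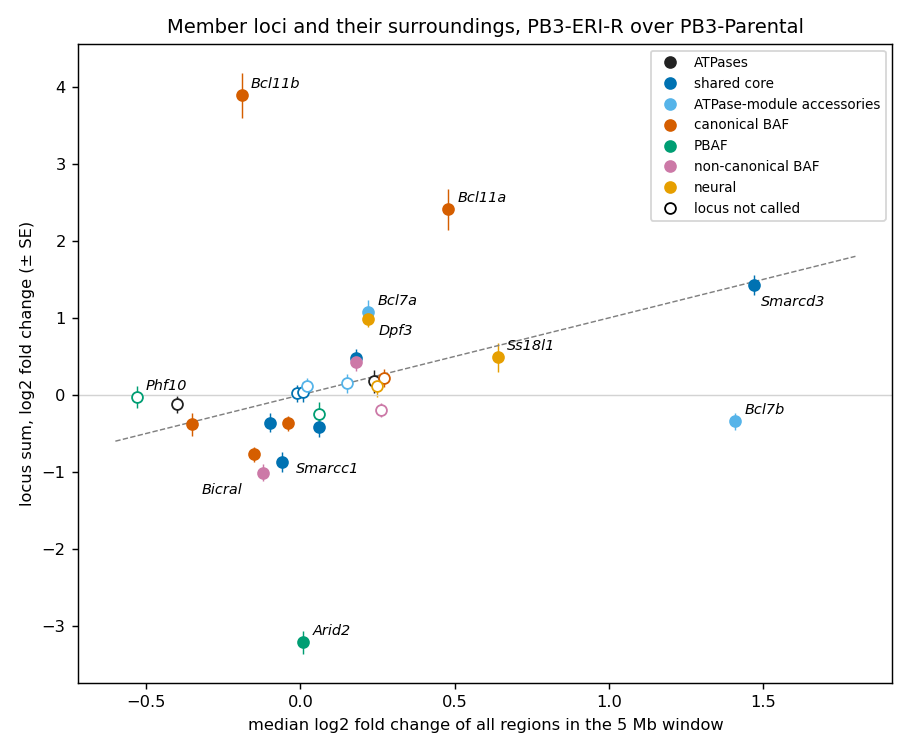
Log2 fold change (± SE) of each member locus in PB3-ERI-R over PB3-Parental against the median log2 fold change of all regions in its 5 Mb window; the dashed line marks equal change. The locus axis has the scaling of the locus table and the window axis that of the regions, which shifts all loci by 0.27. Smarcd3 lies near the line at a window median of 1.47, Bcl7b far under it at 1.41, and Arid2 and Bcl11b far from it at window medians of 0.01 and -0.19.

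Canonical BAF held the largest gain. Bcl11b and Bcl11a are zinc-finger transcription factors that co-purify with BAF, known above all from lymphocyte and neuron development. Bcl11b held 55.5 and 43.8 CPM in PB3-ERI-R, against 3.29 and 3.41 CPM in PB3-Parental (3.89 ± 0.29, adjusted p = 1.14e-06), and the groups were far apart. Both of its regions rose, at 71984 and 41176 bp from the listed start. The one at chr12:107961824-107962238 had 14.0 and 13.3 CPM in PB3-ERI-R, against 0.361 and 0.333 CPM (6 and 5 counts) in PB3-Parental, a log2 fold change of 5.27 ± 0.36 (adjusted p = 1.33e-08). No region lay at the listed Bcl11b start printed above. It lies inside the gene body, which begins at chr12:108004145 on the minus strand. Bcl11a held 19.0 and 16.3 CPM in PB3-ERI-R, against 3.29 and 3.33 CPM in PB3-Parental (2.41 ± 0.27, adjusted p = 2.09e-05), in a single region 3.1 kb from its listed start. That start lies inside the gene body, which begins at chr11:24076564 on the plus strand. The region begins at chr11:24077455, nearer to that end, and counts as distal only by the listed start. In the leukocyte marker list 1 of 6 tested loci was higher and 4 were lower, and 2 of its 8 genes had no region. Its summed level was 59.1 and 70.1 CPM in PB3-ERI-R and 138 and 109 CPM in PB3-Parental. Of all loci 28.0% were higher and 30.3% lower. Any link of that list to the gains at Bcl11a and Bcl11b was not tested.

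The paired subunits Arid1a (BAF250A) and Arid1b (BAF250B), mutually exclusive in a complex, both fell as loci but differed in their regions. Arid1a held 122 and 127 CPM in PB3-ERI-R, against 209 and 214 CPM in PB3-Parental (-0.77 ± 0.10, adjusted p = 7.15e-05), with no overlap. Of its 9 regions 4 fell and none rose. The 4 were distal, 23.8 kb to 73.3 kb from the nearest listed start, and fell by 0.68 to 1.55 on the log2 scale, and the 3 regions near its starts were not called one by one (-0.18 to -0.34). Their sum, in the table of promoter sums, was called lower (-0.60 ± 0.10, adjusted p = 0.000605), a call that ended when scaled as the regions (-0.24, adjusted p = 0.145). Arid1b held 188 and 182 CPM in PB3-ERI-R, against 234 and 243 CPM in PB3-Parental (-0.37 ± 0.10, adjusted p = 0.00762).

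Inside and beside Arid1b, with 12 regions over its 353.4 kb, 3 regions rose, 3 fell and 6 were not called. At chr17:5125871-5126333 the level was 40.1 and 30.8 CPM in PB3-ERI-R, against 0.361 and 0.532 CPM (6 and 8 counts) in PB3-Parental, a log2 fold change of 6.30 ± 0.36 and the largest at any member region (adjusted p = 3.45e-09). A region further on, at chr17:5138511-5139233, moved the other way, with 96 and 81 raw counts in PB3-ERI-R, against 913 and 867 in PB3-Parental (-2.65 ± 0.16, adjusted p = 6.14e-09). The small change of the sum thus hid large changes of both signs. Of the 21 member loci with at least 2 regions, 3 (14.3%) had both a rise and a fall, against 41.8% of 9456 loci in all, a contrast that was not tested. The other 2 were Phf10 and Bicra. With no scaling factor the rises at Phf10 (0.21) and Bicra (0.24) were not called, and without PB3-Parental replicate 1 those rises (0.40 and 0.51) and the Bicra fall (-0.73) were not called either, which left Arid1b.

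Dpf2 (BAF45D), the Dpf protein found in most cell types, had 1 region, at its start. It held 27.6 and 28.1 CPM in PB3-ERI-R, against 33.4 and 39.3 CPM in PB3-Parental (-0.38 ± 0.15, adjusted p = 0.0491), a call that ended in 10 other settings, among them the removal of either PB3-ERI-R library (0.153 and 0.135), of PB3-Parental replicate 2 (0.279) and of either PB3-PAC-R library (0.0646 and 0.0659). Ss18, known from the fusion gene of human synovial sarcoma, was not called as a locus (0.22 ± 0.12, adjusted p = 0.135). Its only region was called higher in the table of regions (0.49 ± 0.15, adjusted p = 0.00981) and in that of distal sums (0.47 ± 0.16, adjusted p = 0.0205). Both calls ended with no scaling factor (0.14 and 0.22), with window offsets, and without PB3-Parental replicate 1 or PB3-ERI-R replicate 2.

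**Figure D3:**
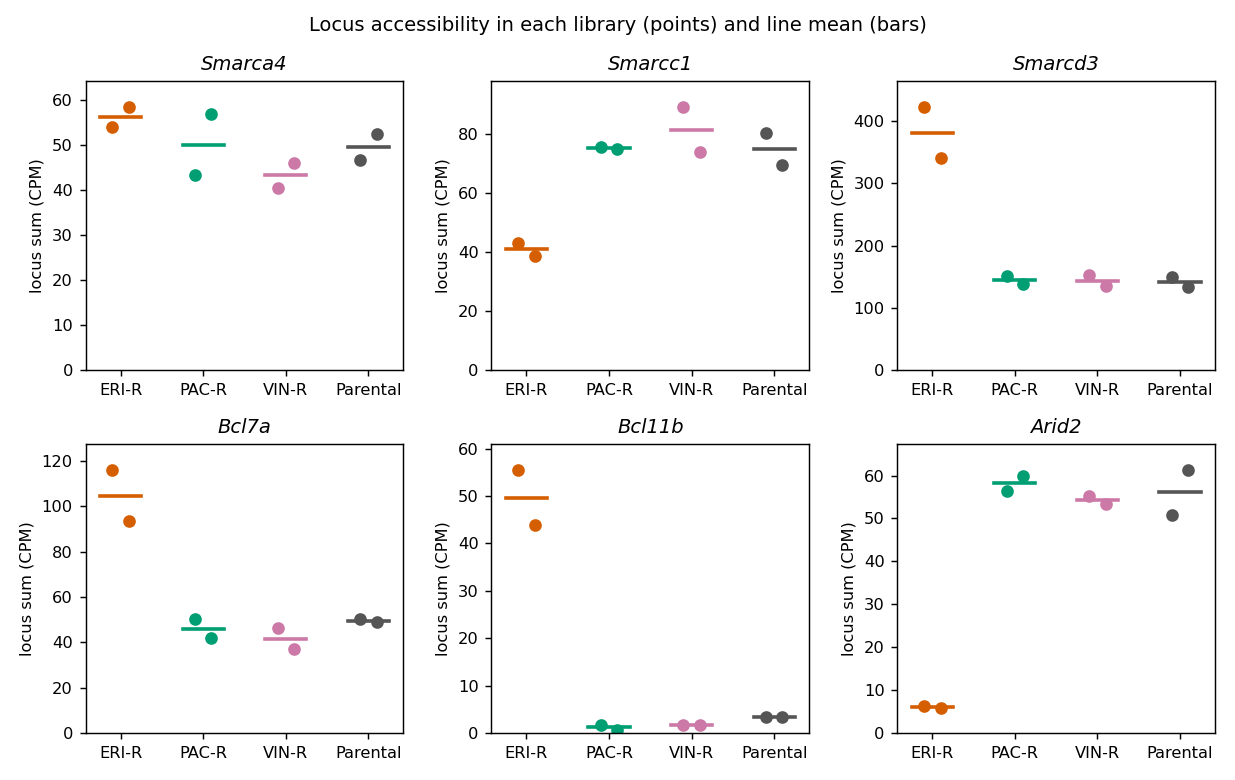
Summed accessibility in CPM (y axis from 0) of 6 member loci in each library (points) with the line mean (horizontal bars), in PB3-ERI-R, PB3-PAC-R, PB3-VIN-R and PB3-Parental. Smarca4 differs little between lines, Smarcd3, Bcl7a and Bcl11b are high in both PB3-ERI-R libraries, and Smarcc1 and Arid2 are low in them; Arid2 reads 6.35 and 5.74 CPM there, against 50.9 and 61.3 CPM in PB3-Parental.

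PBAF showed the deepest loss, at Arid2. Arid2 (BAF200) is the ARID subunit that defines PBAF. Its locus held 6.35 and 5.74 CPM in PB3-ERI-R, against 50.9 and 61.3 CPM in PB3-Parental (-3.21 ± 0.15, adjusted p = 9.52e-08). PB3-PAC-R held 56.5 and 60.0 CPM and PB3-VIN-R 55.2 and 53.4 CPM, so only the PB3-ERI-R libraries were low. All 4 regions fell, by 2.03 to 5.04 on the log2 scale, the only member locus where every region did so. The deepest, at chr15:96377783-96378249 inside the gene, had 2 and 6 counts (0.186 and 0.664 CPM) in PB3-ERI-R, against 155 and 269 counts (9.33 and 17.9 CPM) in PB3-Parental (-5.04 ± 0.54, adjusted p = 8.77e-07). None of the 4 was called in PB3-PAC-R or PB3-VIN-R. In bulk libraries, fewer cells with an open region and a less open region in each cell cannot be told apart.

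The loss at Arid2 did not extend to the region at its other end. The fallen regions lay in the part from 96366650 to 96405921 on chromosome 15, toward the higher-coordinate end of the gene. A region at chr15:96286447-96286966, 556 bp outside the lower-coordinate end, belongs by the rule to the neighbouring gene Gm38469. It had 40.7 and 37.0 CPM in PB3-ERI-R, against 27.1 and 27.8 CPM in PB3-Parental (0.50 ± 0.17, adjusted p = 0.0141). Which end holds the Arid2 start is not given in the tables used here. Counting that region for Arid2 as well gave a locus change of -1.01 ± 0.10 (adjusted p = 1.15e-05), so the call stood and its size shrank.

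Pbrm1 (BAF180), the PBAF subunit with several bromodomains, had no region by the rule, because the region over its start also overlaps Gnl3 and was given to that gene. That shared region, chr14:31018800-31019660, had 62.3 and 59.7 CPM in PB3-ERI-R, against 30.2 and 31.7 CPM in PB3-Parental (0.98 ± 0.17, adjusted p = 0.000142), and the groups did not overlap. Phf10 (BAF45A) and Brd7, both PBAF subunits that bind chromatin, were not called as loci (-0.03 ± 0.14 and -0.25 ± 0.16). Beneath the level Phf10 sum lay 2 opposite changes. Its inner region, 11.4 kb from the start, had 1.02 and 1.55 CPM in PB3-ERI-R, against 6.26 and 5.46 CPM in PB3-Parental (-2.20 ± 0.34, adjusted p = 3.89e-05). Its start region had 29.3 and 27.9 CPM in PB3-ERI-R, against 17.2 and 21.5 CPM in PB3-Parental (0.56 ± 0.20, adjusted p = 0.0229), a rise whose call ended with no scaling factor (0.21) and without PB3-Parental replicate 1 or either PB3-ERI-R library.

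In non-canonical BAF, Bicral fell, Brd9 rose and Bicra was not called (-0.19 ± 0.09, adjusted p = 0.0992). Bicral (GLTSCR1L) and Bicra (GLTSCR1) are the alternative scaffolds of that form. Bicral held 177 and 179 CPM in PB3-ERI-R, against 370 and 347 CPM in PB3-Parental (-1.01 ± 0.11, adjusted p = 1.75e-05), with no overlap. Of its 8 regions 6 fell, by 0.41 to 1.24 on the log2 scale, and the smallest of these calls ended with window offsets and without PB3-Parental replicate 2 or PB3-ERI-R replicate 2. The region over its higher-coordinate end did not (30.8 and 31.6 CPM in PB3-ERI-R, 34.7 and 33.4 CPM in PB3-Parental, -0.13 ± 0.16). Brd9, the bromodomain subunit specific to this form, held 52.3 and 58.4 CPM in PB3-ERI-R, against 39.7 and 42.3 CPM in PB3-Parental (0.43 ± 0.12, adjusted p = 0.00947) in 1 region at its start, a call that ended without PB3-Parental replicate 1 or PB3-ERI-R replicate 2 (0.0633 and 0.0669) and with window offsets (0.101).

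Of the 7 regions of the neural subunits 5 rose and none fell (71.4% called, near the 73.0% of all regions). Of the 5, the Dpf3 start region (0.46 ± 0.16) was no longer called with no scaling factor (0.10), with window offsets (0.24), or without PB3-Parental replicate 1 or 2 or PB3-ERI-R replicate 1, and the Ss18l1 region (1.09 ± 0.26) was not called with window offsets (0.44). Dpf3 (BAF45C), a neuronal counterpart of Phf10 that also acts in heart and muscle, held 99.1 and 92.0 CPM in PB3-ERI-R, against 46.6 and 49.6 CPM in PB3-Parental (0.99 ± 0.11, adjusted p = 1.98e-05), with no overlap. Most of that came from 1 inner region, chr12:83268324-83268955, 218.8 kb from the start. It had 37.4 and 35.0 CPM in PB3-ERI-R, against 2.95 and 2.0 CPM in PB3-Parental (3.86 ± 0.28, adjusted p = 2.06e-08), and only PB3-ERI-R had a peak there. Ss18l1 (CREST), the neural counterpart of Ss18, held 24.2 and 21.8 CPM in PB3-ERI-R, against 17.3 and 15.4 CPM in PB3-Parental (0.49 ± 0.19, adjusted p = 0.0481). With window offsets, which are on the scale of the regions, that change was -0.15 ± 0.20, so its sign rests on mixed scales. The locus call also ended without any one of the PB3-ERI-R, PB3-Parental or PB3-PAC-R libraries. The region over the listed Ss18l1 start, chr2:180041879-180043442, was given by the rule to Psma7 and is not in that sum. It had 96.9 and 83.4 CPM in PB3-ERI-R, against 58.9 and 61.7 CPM in PB3-Parental (0.58 ± 0.16, adjusted p = 0.00491). Dpf1 was not called (0.11 ± 0.13), and Actl6b, the neural counterpart of Actl6a, had no region. In the neural marker list 3 of 11 tested loci were higher and 7 lower. Its summed level was 594 and 591 CPM in PB3-ERI-R and 588 and 568 CPM in PB3-Parental. Any link of that list to the neural subunit loci was not tested.

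**Figure D4:**
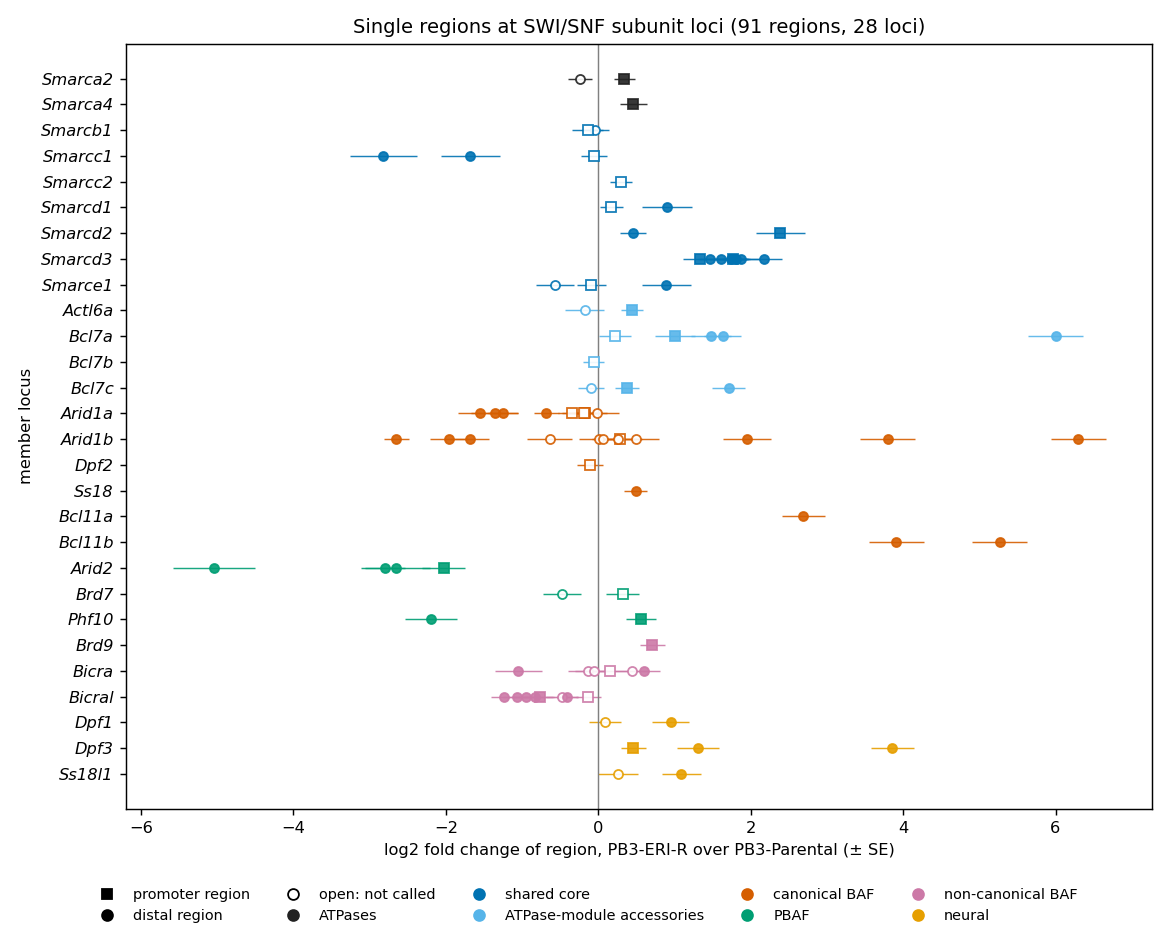
Log2 fold change (± SE) of each of the 91 member regions in PB3-ERI-R over PB3-Parental, 1 row per locus, with squares for promoter and circles for distal regions and open symbols for regions not called. Most squares lie near 0, and the largest gains (6.30 at Arid1b, 6.0 at Bcl7a) and the largest loss (-5.04 at Arid2) are circles.

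Promoter and distal regions of the members followed the split of the whole series. A promoter region lay within 1 kb of a listed start, or of either gene end for the 6 genes with none listed, and all others were distal. Of 28 promoter regions 11 rose and 2 fell (46.4%, where 53.8% of 12518 promoter regions of the whole series were called, 5544 higher and 1191 lower), and of 63 distal regions 25 rose and 19 fell (69.8%, where 76.7% of 35761 were called, 11728 higher and 15701 lower). The median size of the change, sign aside, was 0.33 at member promoter regions and 1.09 at member distal regions, against 0.46 and 1.77 over all promoter and distal regions. The difference between the classes was not tested on single regions. The 5 promoter regions with a change of at least 1 on the log2 scale were 1 at Smarcd2, 2 at Smarcd3, 1 at Bcl7a and 1 at Arid2. The listed starts of Smarcd2 and Smarcd3 lie inside their gene bodies, which begin on the minus strand at chr11:106272998 and chr5:24624456. At Bcl7a and Arid2 a gene end stood in for the start. The Arid2 region lies by the higher-coordinate end, while the region near the other end, given to Gm38469, was higher (0.50 ± 0.17). Which of these ends holds the Arid2 start is not known here, so the fall cannot be placed at its promoter. Among the 15 regions that overlap a listed start, the parental level ran from 18.1 CPM per kb at Phf10 to 104 CPM per kb at Smarca2, followed by Actl6a and Dpf3 at 67.1 and 66.8 CPM per kb.

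Summed per gene, 3 of 23 promoter sums rose and 8 fell (47.8%, where 40.1% of 10793 were called, 20.6% higher and 19.5% lower), and 10 of 23 distal sums rose and 5 fell (65.2%, where 74.5% of 10778 were called, 36.0% higher and 38.5% lower). The split of the promoter sums rested on the scaling: scaled as the regions, 8 rose and 2 fell, and 84.2% of all promoter calls were then rises, against 51.3% with the table's own factors, with the median promoter sum shifted by 0.37. Without PB3-ERI-R replicate 2, and likewise without PB3-Parental replicate 2, 6 promoter sums were called. The split of the distal sums also moved with the scaling, to 11 rises and 5 falls when scaled as the regions and to 6 rises and 9 falls with no scaling factor, where Smarcd1, Smarcd2, Bcl7c and Ss18 lost their calls.

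The ratio of the distal to the promoter sum does not depend on depth, scaling or a copy number shared by the locus, and its change was tested by the interaction of region class and line. In PB3-ERI-R against PB3-Parental the ratio rose at 2 of 18 members and fell at 9 (61.1%, where 66.3% of 6632 genes were called, 22.5% higher and 43.8% lower). The median change was -0.45 over members and -0.37 over all genes, so the tilt toward lower ratios was one that the whole series shared. Smarcc1 had distal to promoter ratios of 0.134 and 0.115 in PB3-ERI-R, against 0.873 and 0.42 in PB3-Parental (log2 change -2.28 ± 0.41, adjusted p = 0.000104). Phf10 had 0.0349 and 0.0556 in PB3-ERI-R, against 0.364 and 0.254 in PB3-Parental (-2.77 ± 0.40, adjusted p = 1.2e-05). In both genes the inner regions fell while the start region did not. The Smarcc1 promoter sum, in its own table, was called lower by a small amount (-0.42, adjusted p = 0.02), a call that ended when scaled as the regions (-0.06), with window offsets, and without PB3-Parental replicate 2 or PB3-ERI-R replicate 2.

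The ratio moved up at Dpf3 and Bcl7a. Dpf3 had 1.34 and 1.52 in PB3-ERI-R, against 0.357 and 0.397 in PB3-Parental (1.92 ± 0.27, adjusted p = 8.15e-06), and Bcl7a had 2.99 and 2.45 in PB3-ERI-R, against 0.963 and 0.981 in PB3-Parental (1.48 ± 0.25, adjusted p = 7.05e-05). Neither promoter sum was called (0.09 and 0.07). Smarcd2 fell by 1.94 ± 0.38 (adjusted p = 0.000235), a value set by what counts as its promoter. Its listed start lies inside the gene body, and the region called distal lies where the body begins. With gene ends counted as promoters too, it had no distal region left. The other 6 falls were smaller, at Smarca2, Actl6a, Arid1a, Arid2, Brd7 and Bicral. Arid2 had 1.84 and 1.94 in PB3-ERI-R, against 3.59 and 5.23 in PB3-Parental (-1.20 ± 0.38, adjusted p = 0.0107). Brd7 had 0.389 and 0.5 in PB3-ERI-R, against 0.733 and 0.809 in PB3-Parental (-0.81 ± 0.29, adjusted p = 0.0216). Actl6a had 0.0531 and 0.0541 in PB3-ERI-R, against 0.0804 and 0.0847 in PB3-Parental (-0.62 ± 0.25, adjusted p = 0.0375). In all 3 the groups did not overlap. Smarca2 had 0.37 and 0.364 in PB3-ERI-R, against 0.523 and 0.573 in PB3-Parental (-0.58 ± 0.19, adjusted p = 0.0122). Arid1a had 0.961 and 0.928 in PB3-ERI-R, against 1.4 and 1.24 in PB3-Parental (-0.48 ± 0.17, adjusted p = 0.0228). Bicral had 3.1 and 3.1 in PB3-ERI-R, against 4.28 and 4.37 in PB3-Parental (-0.48 ± 0.17, adjusted p = 0.0178). The changes at Actl6a, Smarca2, Arid1a and Bicral lie close to the median of all genes. Each of the 6 calls ended without PB3-ERI-R replicate 1. Those of Smarca2, Actl6a, Arid2, Brd7 and Bicral also ended without PB3-Parental replicate 2, those of Actl6a, Arid1a, Brd7 and Bicral without PB3-Parental replicate 1, those of Smarca2, Actl6a, Arid1a and Bicral without PB3-ERI-R replicate 2, and that of Actl6a without either PB3-PAC-R library. Without PB3-ERI-R replicate 1, PB3-ERI-R replicate 2 or PB3-Parental replicate 2 the count of called members was 5, 7 and 6. At Smarcd3, where promoter and distal sums rose together (1.23 ± 0.12 and 1.71 ± 0.12), the ratio was not called (0.14 ± 0.18). The Smarcd3 promoter class rests on a listed start inside the gene body. The sums have the scaling of their own tables, with factors of 0.9403 (promoter) and 0.8496 (distal) for PB3-ERI-R replicate 1. Their difference is thus not the change of the ratio.

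**Figure D5:**
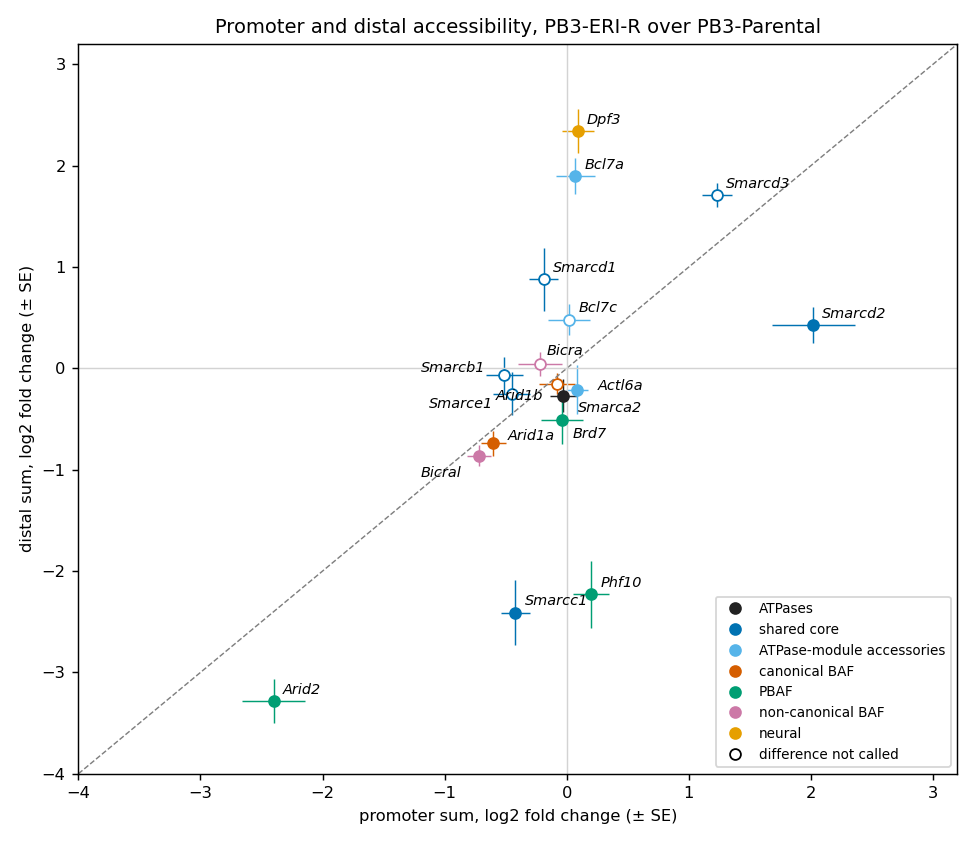
Change of the distal sum against change of the promoter sum (log2 fold change ± SE, PB3-ERI-R over PB3-Parental) for the 18 members with both. The dashed line marks equal values on the 2 axes, and filled points mark a called change of the ratio. Each axis has the scaling of its own table, so the distance from the line is not the tested change of the ratio. Dpf3 and Bcl7a lie above the line at promoter changes near 0, Smarcc1 and Phf10 below it at distal changes of -2.41 and -2.23, and Smarcd3 high on both axes.

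In PB3-PAC-R and PB3-VIN-R, edgeR called 0 of 28 member loci, where 0.114% and 0.669% of all loci were called, and 0 of 91 regions, where 0.0853% and 0.678% were called. At an unadjusted p under 0.05 there were 2 and 1 loci and 4 and 5 regions. DESeq2 called 1 locus in PB3-PAC-R, Bcl11b, and none in PB3-VIN-R. Bcl11b held 1.77 and 0.709 CPM in PB3-PAC-R and 1.61 and 1.7 CPM in PB3-VIN-R, against 3.29 and 3.41 CPM in PB3-Parental, with edgeR changes of -1.42 ± 0.37 and -1.01 ± 0.33 (adjusted p = 0.36 and 0.341). These levels lay below the parental ones and opposite to the PB3-ERI-R rise, though neither passed the test.

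Promoter sums, distal sums and distal to promoter ratios also gave 0 called members in either line by edgeR. The background shares called were 0.102% and 0.158% for promoter sums, 0.213% and 0.965% for distal sums, and 0.0% and 0.0302% for the ratio. The counts at an unadjusted p under 0.05 were 2 and 0, 1 and 4, and 0 and 2, and DESeq2 called 1 distal sum in PB3-PAC-R, Bcl11b. With the replicate number as a block, 1 region was called in PB3-PAC-R (at Bcl11b), and 3 regions (at Dpf3, Bcl11b and Phf10) and 2 distal sums (Dpf3 lower, Phf10 higher) in PB3-VIN-R. The Phf10 distal sum was 19.3 and 24.7 CPM in PB3-VIN-R, against 12.9 and 11.4 CPM in PB3-Parental (0.85 ± 0.24, adjusted p = 0.129). The Dpf3 distal sum was 11.6 and 15.7 CPM in PB3-VIN-R, against 21.1 and 25.3 CPM in PB3-Parental (-0.77 ± 0.22, adjusted p = 0.147). The 3 comparisons share the PB3-Parental libraries.

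The authors' peak lists, 1 per line with no replicates, give presence or absence. A peak overlapped 61 of 91 member regions in PB3-ERI-R, 65 in PB3-PAC-R, 76 in PB3-VIN-R and 66 in PB3-Parental (67.0%, 71.4%, 83.5% and 72.5%, against 52.4%, 67.4%, 78.8% and 64.6% of all regions). Of the 91, 42 had a peak in every line (46.2%, against 31.4% of all regions), 20 in every line but PB3-ERI-R (22.0% against 26.9%) and 12 in PB3-ERI-R alone (13.2% against 16.9%), while 6 had one in PB3-VIN-R alone, where the counts gave no called member. Of the 28 promoter regions 20 had a peak in every line, and of the 63 distal ones 22. The PB3-VIN-R libraries were the deepest, and the part of depth in their larger number was not tested.

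Other remodellers were counted for comparison, in lists of ISWI, CHD and NuRD, INO80 family and Polycomb repressive complex 2 genes. Of 44 genes 42 were tested, and 9 rose and 11 fell in PB3-ERI-R (47.6%, under the 58.3% of all loci called), with 0 called in PB3-PAC-R and PB3-VIN-R. Smarca5 (SNF2H), the ATPase of ISWI complexes, held 50.2 and 54.5 CPM in PB3-ERI-R, against 22.8 and 26.8 CPM in PB3-Parental (1.08 ± 0.16, adjusted p = 0.000158). Chd5, a neural NuRD ATPase, held 7.51 and 8.99 CPM in PB3-ERI-R, against 63.5 and 77.0 CPM in PB3-Parental (-3.09 ± 0.17, adjusted p = 1.83e-07), a fall of the size seen at Arid2. Smarca5 had the largest rise and Chd5 the largest fall of these lists, and both were chosen after their values were seen. Other ATPase loci were called lower, namely Chd7 (-1.36, adjusted p = 9.06e-07), Smarca1 (-0.86), Hells (-0.85) and Ep400 (-0.47). Atrx (0.74), Chd9 (0.41) and Chd2 (0.34) were called higher. Further ones, such as Chd4 (0.38, adjusted p = 0.0906), Chd3 (0.17), Ino80 (0.05) and Srcap (0.04), were not called.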

How the data were processed

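Nuclei of 4 PB3 lines were processed by the Buenrostro ATAC-seq protocol and sequenced as paired ends, per the labels' protocols. No source used here gives the handling of duplicates, the filters or any Tn5 shift. Per the submitters' processing notes, the tools included MACS2 2.1.1 and featureCounts, with alignment software listed as Bowtie2 2.2.6, and the builds were mm10 and GRCm38. Raw read counts per consensus region for the 8 libraries were used as deposited. The authors' peak lists, 1 per line, give a score, a fold enrichment and a −log10 p per peak, of which peak positions and the score were used; the consensus regions are deposited with 0-based starts, printed here from 1. 

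Each region was assigned to the nearest of 21887 RefSeq protein-coding gene bodies (GRCm38.p6) within 50 kb, 17492 of them with a listed start. Where none was listed, either gene end stood in for it. Counts were summed per gene, per promoter class and per distal class. Tests used edgeR 4.0.16 (quasi-likelihood, TMM, filterByExpr, 1 term per line, all 8 libraries) in R 4.3.3, with Benjamini-Hochberg adjustment over all features of a table. The ratio test used 1 term per library and the interaction of class and line. Alternatives covered DESeq2 1.42.0, limma 3.58.1, other scaling and filters, window offsets, assignment distances, the replicate block and each library left out. On simulated data, loci changed 2-fold and 4-fold were recovered in 80.0% and 100% of cases. The ratio test recovered 34.0% and 99.5%, and 9.33% and 13.1% of its calls were false, more than the nominal 5%. The simulation changed only a small share of features, at a fixed dispersion. In PB3-ERI-R 58.3% of loci were called, so these shares need not hold there. Members and lists were chosen with earlier results of these data known. Every member is accounted for; library values are given for those called as loci or by the ratio and for the pairs Smarca2 and Smarca4, Arid1a and Arid1b, and Actl6a with Actl6b, which had no region. A count of 3 corresponds to 0.125 to 0.285 CPM, and limits of this kind cover counting error only.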

Additional observations from a re-analysis of the deposited data

Results flagged for a closer look

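The change of distal regions differed from that of promoter regions within 11 member genes in PB3-ERI-R against PB3-Parental, by edgeR's interaction test with Benjamini-Hochberg adjustment over 6632 genes. The change of the distal to promoter ratio was -2.77 on the log2 scale at Phf10, -2.28 at Smarcc1 and -1.94 at Smarcd2. Smaller shifts in the same direction were -1.20 at Arid2, -0.81 at Brd7, -0.62 at Actl6a, -0.58 at Smarca2, -0.48 at Arid1a and -0.48 at Bicral. The distal side was relatively higher at Dpf3 (1.92) and Bcl7a (1.48). The median over all genes was -0.37, so the shifts at Arid1a, Bicral, Smarca2 and Actl6a lie near it. The 11 are 61.1% of the 18 members tested, where 66.3% of all genes were called, and the calls at Arid2, Brd7, Actl6a, Smarca2, Arid1a and Bicral each ended when 1 library, PB3-ERI-R replicate 1 among others, was left out. At Arid2, Bcl7a and Bicral either gene end stood in for the start. At Smarcd2 the listed start lies inside the gene body, and with gene ends counted as promoters too no distal region was left.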

How the results depend on the processing

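Called in every setting run were 9 of 17 loci, 36 of 57 regions, 3 of 11 promoter sums, 9 of 15 distal sums and 5 of 11 ratios in PB3-ERI-R. Signs turned with window offsets at Smarcd3 (locus -0.03, promoter sum -0.24, start-side region -0.12) and Ss18l1 (locus -0.15), and with no scaling factor at the Smarca2 start region (-0.02). The offsets are on the scale of the regions, while loci and promoter sums kept the scaling of their own tables. Scaling as the regions shifted the median locus by 0.27 and the median promoter sum by 0.37. Those shifts exceed the negative locus and promoter values in size, so these signs rest on mixed scales. The cause of the turns at the regions was not tested. Leaving out 1 library gave 6 to 11 promoter sums, 5 to 13 ratios, 12 to 17 loci, 51 to 58 regions and 11 to 15 distal sums. With DESeq2, 1 locus and 1 distal sum were called in PB3-PAC-R, both Bcl11b. The labels tie replicate numbers to no shared batch or day, although same-numbered libraries deviated together in all 6 pairs of lines (correlations 0.155 to 0.507). With the replicate number as a block there were 19 loci, 65 regions, 11 promoter sums and 17 distal sums in PB3-ERI-R, 1 region in PB3-PAC-R, and 3 regions and 2 distal sums in PB3-VIN-R. At a peak score of 1000 only, 46 member regions had a peak in PB3-ERI-R, 62 in PB3-VIN-R and 54 in PB3-Parental. With 2 libraries per line, simulated 2-fold changes were recovered at 80.0% of loci and 60.5% of regions. Some changes of that size can thus be missed where few features change, as in the simulation. Recovery was not measured for a setting like PB3-ERI-R, where 58.3% of loci were called.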
